A study of Homo sapiens with 20 samples.

Results

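The death receptors of the tumour necrosis factor receptor superfamily, the decoy receptors that bind the same ligand as some of them, and the ligands were examined in NGP cells treated with nutlin-3. NGP is a human neuroblastoma cell line. The compound nutlin-3 occupies the p53-binding pocket of MDM2, the main inhibitor of the transcription factor p53, so that p53 accumulates. The 8 genes, FAS, TNFRSF1A, TNFRSF10A, TNFRSF10B, TNFRSF10C, TNFRSF10D, FASLG and TNFSF10, were chosen by their GENCODE gene names out of 57536 annotated genes, and all 8 were among the 27697 genes tested. The nutlin group held 10 samples given the racemic compound at 8 µM, and the vehicle group held 10 samples given ethanol. Both groups were the same line grown in 6-well format, and the duration of treatment is not given in the sources used here. The samples of a group are described as biological replicates in the study's methods, whereas the labels do not name the culture of each sample.

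Death receptors are membrane proteins with a cytoplasmic death domain, which recruits the adaptor FADD and the initiator caspases when a ligand clusters the receptors. FAS is bound by FAS ligand (FASLG), and TRAIL (TNFSF10) is bound by the death receptors TNFRSF10A (DR4) and TNFRSF10B (DR5). TNFRSF10C (DcR1) lacks a cytoplasmic death domain and TNFRSF10D (DcR2) has a truncated one, so that both bind TRAIL without passing the death signal on. TNFRSF1A, the receptor for tumour necrosis factor, carries a death domain but signals to survival as well as to death. FAS and several TRAIL receptors are known as p53 target genes. The ligands are known mainly from activated T cells and natural killer cells.

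A sequence of p53-like type was found near the start of FAS and is printed because FAS was among the genes with the largest rise. The search used a pair of back-to-back 10-base elements of the p53 consensus with no spacer, at most 2 mismatches and the core C and G fixed. This consensus is its own reverse complement, so both strands were covered. In hg38, within 2000 bases of either side of the start of the canonical transcript, 2.909% of 20044 windows held such a match. FAS held 1, on the forward strand at chr10:88991309-88991328, 511 bases after its start. The position is in intron 1 of the canonical transcript and within an exon of another FAS transcript. The 20 bases of the match are in capitals and the 5 bases on each side are in lower case.
FAS intron 1: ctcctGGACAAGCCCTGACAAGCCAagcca
The match had 2 mismatches. It is a match of letters only and was not tested for binding.

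Total estimated counts were between 14455477 and 19532971 in the vehicle samples and between 15078052 and 17442896 in the nutlin samples. The established p53 targets MDM2 and CDKN1A, which served as a check of the treatment, had log-fold-changes (LFC, log2 scale, nutlin against vehicle) of 4.51 (SE 0.07) and 5.68 (SE 0.145). The 8 markers of adrenergic neuroblastoma were all counted, with summed levels of 2990 to 3656 TPM in vehicle and 2664 to 3260 TPM in nutlin. TPM is a level scaled for transcript length and library size. Of 6 markers of cytotoxic lymphocytes, the usual source of FASLG, CD3E and GZMB were at 0 in all samples. CD8A was counted in every sample, with means of 0.715 TPM in vehicle and 0.879 TPM in nutlin. PTPRC, NKG7 and PRF1 held at most 6 counts in any sample. None of these 4 was called. The summed level of the 6 was 0.698 to 1.69 TPM in vehicle and 0.85 to 1.69 TPM in nutlin. The 4 mesenchymal markers summed to 9.32 to 15.2 TPM in vehicle and 16.1 to 21.3 TPM in nutlin. They did not move together: COL1A1 (LFC 1.98) and PRRX1 (LFC 1.97) were called higher, FN1 (LFC -0.76) lower and COL3A1 (LFC -0.07) neither, and their part in the results below was not tested. The nutlin sample numbered 4 was the lowest of its group for 4 of the 5 receptors FAS, TNFRSF1A, TNFRSF10B, TNFRSF10C and TNFRSF10D, the exception being TNFRSF10D. It was also the lowest of the nutlin samples for MDM2 (4581 CPM) and CDKN1A (1259 CPM), and in expression over all genes it was the farthest from the rest of its group. Without it, 6 of the 8 genes were again called higher and 0 lower.

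Of the 8 genes, 6 were called higher after nutlin and 0 lower at 5% FDR by the edgeR quasi-likelihood test. Of all genes tested, 58.8% were called, 32.3% higher and 26.5% lower. No gene of the 8 was lower at an unadjusted p under 0.05 either, and DESeq2 and limma voom also called 0 lower. The median LFC of the 8 genes was 2.93, and that of all genes tested was 0.19. The called genes were all 6 receptors, whereas both ligands, FASLG and TNFSF10, were not called. In FAS, TNFRSF10B, TNFRSF10C and TNFRSF10D, every nutlin sample was above every vehicle sample in CPM, counts scaled by the normalised library size. This is a pattern seen in 12.2% of all genes tested. By LFC, TNFRSF10D was at rank 29, FAS at 55, TNFRSF10B at 167 and TNFRSF10C at 293 from the top of 27697 genes. RNA of bulk cultures was measured, so that more RNA per cell and more cells with the RNA cannot be told apart.

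**Figure D1:**
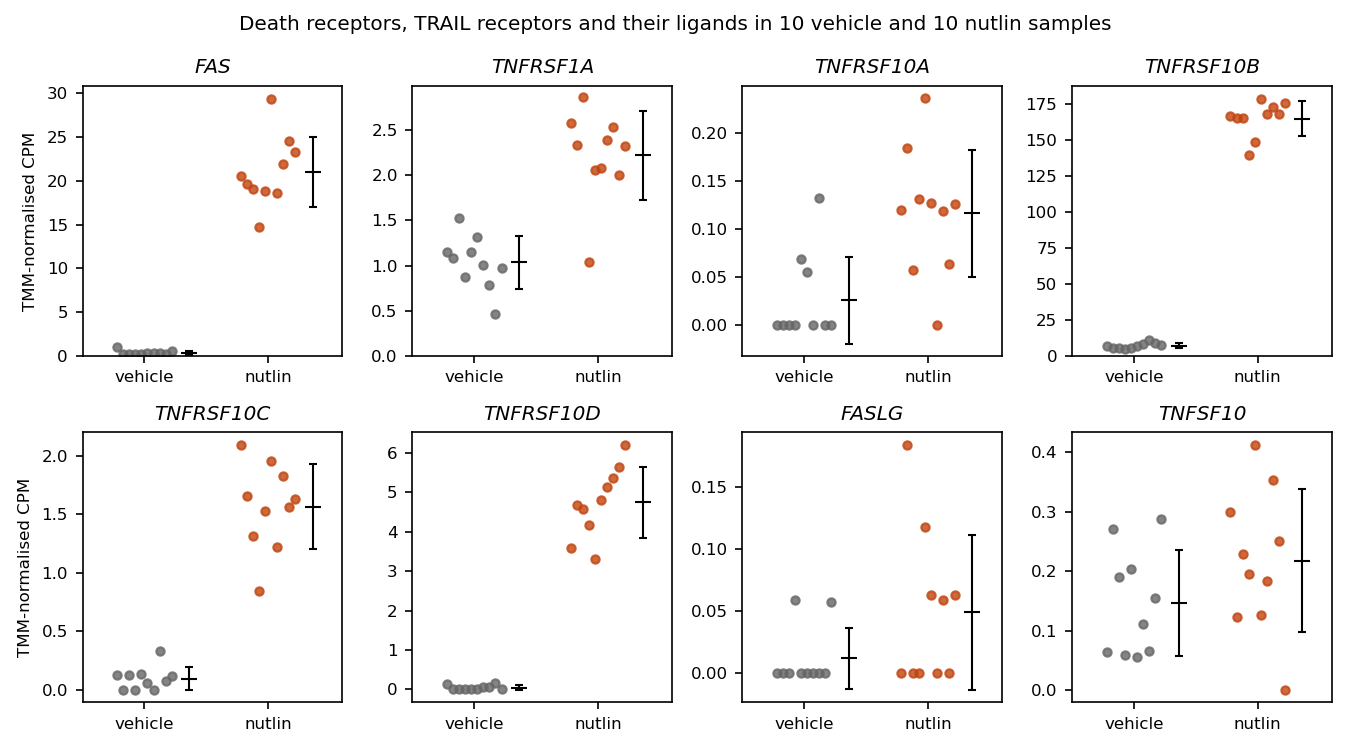
TMM-normalised CPM (linear axis, one scale per gene) of the 8 genes in the 10 vehicle samples (grey) and the 10 nutlin samples (red). Points are samples and the black mark beside them is the mean with its SD. The groups are apart in FAS, TNFRSF10B, TNFRSF10C and TNFRSF10D and overlap in the other 4.

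FAS, the receptor for FAS ligand, was close to the limit of detection in vehicle and clearly counted after nutlin. The lowest, median and highest estimated counts were 3, 4.5 and 16 in the 10 vehicle samples and 225, 337.5 and 465 in the 10 nutlin samples. The groups were far apart, and the vehicle sample numbered 3, at 16 counts, stood above the other 9, of which the highest had 9. The LFC was 5.80 (SE 0.171, adjusted p = 1.36e-22, edgeR quasi-likelihood test with Benjamini-Hochberg adjustment), a 55.8-fold rise. Without that vehicle sample the LFC was 6.12. Taking the summed counts, 59 in vehicle and 3442 in nutlin, the ratio scaled by library totals was 65.0, with an exact 95% interval of 50.3 to 85.6 that covers counting error only. The FAS level was 0.389 ± 0.261 TPM in vehicle and 16.2 ± 3.17 TPM in nutlin (SD, n = 10 each).

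FAS lies on the forward strand of chromosome 10, where the canonical transcript spans 88990798 to 89017059 in hg38 and has 9 exons. This transcript was not among the models counted here, so the FAS counts come from its other models. ACTA2, a smooth muscle actin gene on the reverse strand, overlaps the FAS locus, and its counts also rose, with an LFC of 5.27 and an adjusted p of 2.80e-22. STAMBPL1, which overlaps FAS on the same strand, fell by 0.44 on the log2 scale. The libraries were stranded, but the sources used here do not give the strand setting of the counting. How far reads were shared between FAS and ACTA2 was not tested.

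TNFRSF1A, the tumour necrosis factor receptor, rose much less. Its lowest, median and highest counts were 6, 17 and 24 in vehicle and 16, 37.5 and 50 in nutlin. The groups overlapped through the nutlin sample numbered 4, which held the 16 counts. The LFC was 1.09 (SE 0.168, adjusted p = 1.65e-06), a 2.13-fold rise. On chromosome 12 (6328771 to 6342076, reverse strand, 10 exons) the search found no p53-like match in the window of TNFRSF1A.

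TNFRSF10B (DR5) was the highest of the 8 genes in level in both conditions. Counts in vehicle were 80 at the lowest, 109 at the median and 163 at the highest, and in nutlin they were 2133, 2761 and 2924. No nutlin sample came near the vehicle range. The LFC was 4.55 (SE 0.0879, adjusted p = 6.57e-27), which is 23.4-fold. Its level went from 2.73 ± 0.862 TPM to 62.7 ± 5.37 TPM (SD, n = 10 each).

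TNFRSF10A (DR4), the other TRAIL receptor with a death domain, was hardly counted. It had 4 counts over all vehicle samples, in 3 of the 10, and 19 over all nutlin samples, in 9 of the 10. No sample held more than 2 counts in vehicle and 4 in nutlin. The means of both groups were below 3 counts per library, so no fold change is given. The test called TNFRSF10A higher, with an adjusted p of 0.00913. The call was lost with the replicate number as a block (adjusted p = 0.183) and in the same 16 samples without the block (adjusted p = 0.0648), and over all alternatives that tested the gene the adjusted p was between 0.00228 and 0.183. After nutlin, the 2 death receptors of TRAIL, TNFRSF10B and TNFRSF10A, were at 62.7 TPM and 0.0868 TPM.

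The decoy receptors were near 0 in vehicle and low but counted in every nutlin sample. TNFRSF10D (DcR2) had 0 counts in 6 of the 10 vehicle samples and at most 2 in the others, 6 in all. After nutlin it had 56 counts at the lowest, 78 at the median and 99 at the highest. Its LFC, 6.71 (SE 0.282, adjusted p = 8.20e-19), was the largest of the 8 genes in the edgeR fit. On the scale of log2(TPM + 0.1), which compresses low levels, the response of FAS exceeded that of TNFRSF10D by 1.35 (SE 0.199) and that of TNFRSF10B exceeded it by 0.70 (SE 0.125), so the rank of TNFRSF10D depends on the scale. The ratio of the summed counts, scaled in the same way, was 144 with an exact 95% interval of 65.9 to 394, and the width of that interval shows how few vehicle counts it rests on.

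TNFRSF10C (DcR1) had 0, 1.5 and 5 counts at the lowest, median and highest in vehicle, and 13, 26 and 35 in nutlin. No sample of one group reached the range of the other. The LFC was 3.95 (SE 0.317, adjusted p = 4.03e-12), and the ratio of the summed counts, 15 in vehicle and 257 in nutlin, was 19.1 when scaled by library totals (exact 95% interval 11.4 to 34.6). TNFRSF10C and TNFRSF10D are close copies in sequence, so the division of reads between them depends on the model that assigned the reads. That division was not tested.

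The 4 TRAIL receptors together rose from 2.83 ± 0.877 TPM in vehicle to 65.4 ± 5.70 TPM in nutlin (SD, n = 10 each). TNFRSF10B made up 92.0% to 100.0% of this sum in the vehicle samples and 95.5% to 96.4% in the nutlin samples. The decoys together made up 0% to 7.74% in vehicle, with a median of 2.51%, and 3.37% to 4.38% in nutlin, with a median of 4.03%. The vehicle samples scattered over a wide range and the nutlin samples lay inside it. TNFRSF10C alone made up 0% to 7.74% in vehicle, with a median of 2.21%, and 1.01% to 2.23% in nutlin, with a median of 1.68%. TNFRSF10D alone made up at most 1.6% in vehicle and between 1.76% and 2.81% in nutlin, without overlap.

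Whether the decoys changed relative to the death receptors was tested on the log2 ratio of their TPM, TNFRSF10C plus TNFRSF10D over TNFRSF10A plus TNFRSF10B. The ratio could not be formed in 2 vehicle samples, numbered 4 and 6, in which both decoys were at 0. These samples had the lowest decoy level relative to the death receptors, so leaving them out raises the vehicle mean. Over the other 8 vehicle samples the log2 ratio was -7.42 at the lowest, -4.66 at the median and -3.58 at the highest. Over the 10 nutlin samples these values were -4.84, -4.58 and -4.45. The means differed by 0.34 (SE 0.465, higher in nutlin, p = 0.455, two-sided exact permutation test), which is within the spread of the vehicle samples. With 0.1 TPM added to both sums and all 20 samples used, the difference was -0.60 (permutation p = 0.0141), and with CPM in place of TPM it was 0.997 (exact permutation p = 0.00123). The sign and the call thus depended on the pseudocount and on the scaling for length, and the cause was not tested. In vehicle, TNFRSF10C and TNFRSF10D averaged 0.0758 and 0.0131 TPM, each below the 0.1 TPM added. As a linear ratio over all 20 samples, the difference was 0.00687 (SE 0.00977, higher in nutlin, permutation p = 0.488).

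**Figure D2:**
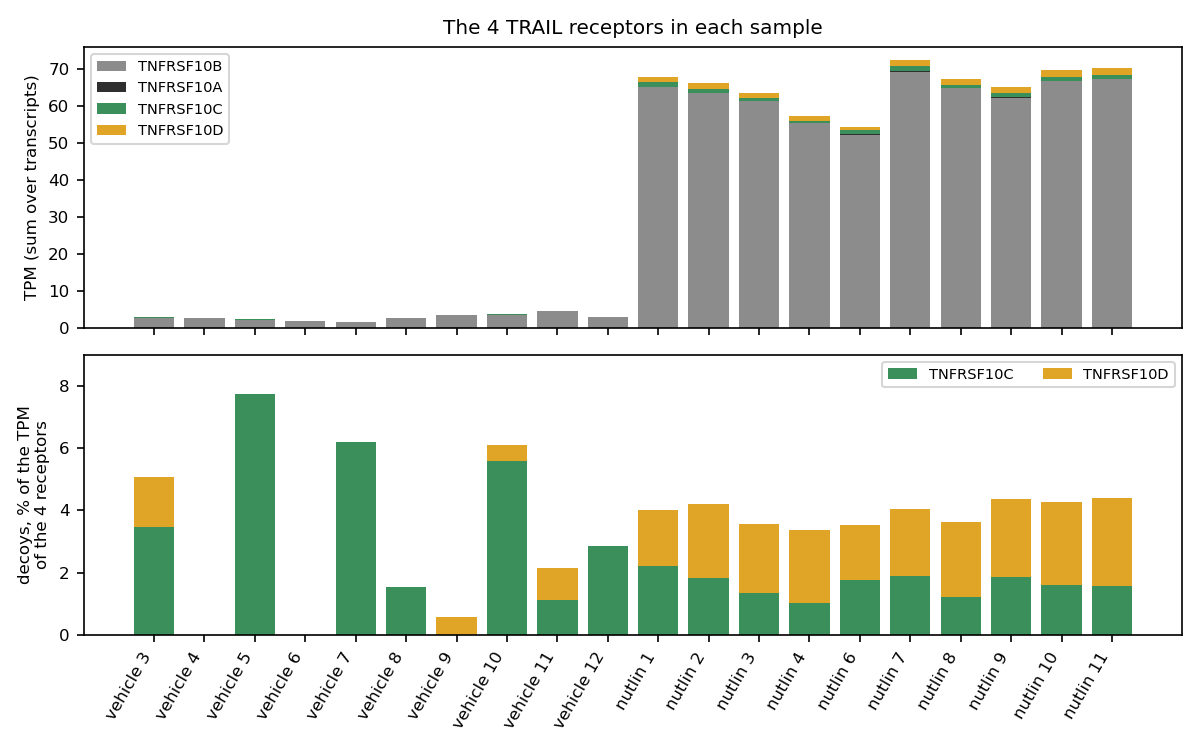
TPM of the 4 TRAIL receptors (upper, stacked, linear axis) and the decoys TNFRSF10C and TNFRSF10D as a percentage of that sum (lower) in each of the 20 samples. TNFRSF10B (grey) fills almost all of every upper bar, and the decoys take 3.37% to 4.38% in every nutlin sample, against 0% to 7.74% in vehicle.

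The ligands stayed at a few counts per library in both conditions. TNFSF10 (TRAIL) had 1, 2 and 5 counts at the lowest, median and highest in vehicle and 0, 3.5 and 7 in nutlin. The groups overlapped throughout, with an LFC of 0.57 (SE 0.408, adjusted p = 0.238). The summed counts, 23 and 36, gave a ratio of 1.74 when scaled by library totals (exact 95% interval 1.005 to 3.08). That scaling leaves out the TMM factors of the test, in which the fold was 1.49. The lower end of the interval, close to 1, thus depends on the scaling. All TNFSF10 counts were on 1 transcript model and 0 on the canonical one.

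FASLG had 2 counts over all vehicle samples and 8 over all nutlin samples, at most 1 and 3 in any sample. No fold change is given for FASLG, which was below 3 counts per library on average in both groups (adjusted p = 0.106). At this depth 3 counts correspond to 0.176 CPM in vehicle and 0.196 CPM in nutlin on average, and no FASLG value exceeded 3 counts. FASLG lies on chromosome 1 (172659103 to 172666876) and TNFSF10 on chromosome 3 (172505508 to 172523430), and no p53-like match was found in either window.

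In level, per transcript length, the order in vehicle was TNFRSF10B (2.73 TPM), TNFRSF1A (0.951), FAS (0.389), TNFSF10 (0.111), TNFRSF10C (0.0758), TNFRSF10D (0.0131), TNFRSF10A (0.0106) and FASLG (0.00784). Only for TNFRSF10B did the range over the vehicle samples lie clear of that of its next neighbour, although FAS was also above TNFSF10 within each of the 10 vehicle samples. After nutlin the order was TNFRSF10B (62.7 TPM), FAS (16.2), TNFRSF1A (2.12), TNFRSF10D (1.51), TNFRSF10C (1.07), TNFSF10 (0.16), TNFRSF10A (0.0868) and FASLG (0.0354). There, the ranges of TNFRSF10B, FAS and TNFRSF10C were each clear of that of the next gene, whereas the ranges of TNFRSF1A and TNFRSF10D overlapped, as did TNFRSF10D and TNFRSF10C and the last 3 genes. FAS moved from below TNFRSF1A in 9 of 10 vehicle samples to above it in all 10 nutlin samples.

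The responses of the 3 receptors with a mean of at least 1 TPM over all samples, FAS, TNFRSF1A and TNFRSF10B, were compared in pairs, as the change in the log2 ratio of TPM + 0.1. FAS and TNFRSF1A were below 1 TPM in vehicle and passed this limit through their nutlin level, so the choice of genes is not independent of their response. The response of FAS exceeded that of TNFRSF1A by 4.05 (SE 0.318), and that of TNFRSF10B exceeded that of TNFRSF1A by 3.39 (SE 0.356). In both cases the adjusted p was 9e-05 (two-sided permutation test, 100000 resamples, Benjamini-Hochberg over 3 pairs). FAS exceeded TNFRSF10B by 0.65 (SE 0.241, adjusted p = 0.0158), but with 1 TPM added the difference turned to -0.49 (adjusted p = 0.0024). With CPM in place of TPM, FAS exceeded TNFRSF10B by 1.01 (adjusted p = 0.00022). The order of FAS and TNFRSF10B in response thus changed with the pseudocount, and the cause was not tested. In vehicle, FAS averaged 0.389 TPM, below the 1 TPM added, and TNFRSF10B 2.73 TPM, above it.

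At the level of single transcript models, 30 of the 55 models of the 8 genes had counts in both conditions and were tested. Of these, 14 were called higher and 0 lower, against 12.2% of all transcripts tested called higher, and 0 were lower at an unadjusted p under 0.05. All 6 tested models of TNFRSF10B were called, as were 5 of 8 of FAS and 1 of 11 of TNFRSF1A. The canonical TNFRSF10B-201 rose from 1.03 ± 0.43 to 32.0 ± 3.52 TPM, and TNFRSF10B-202, the shorter protein-coding model, from 0.176 ± 0.29 to 12.2 ± 2.48 TPM (SD, n = 10 each). TNFRSF10B-208, a model with a retained intron, went from 0.873 ± 0.42 to 7.46 ± 1.12 TPM. It made up 31.9% of the mean TNFRSF10B level in vehicle and 11.9% in nutlin.

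Of FAS, the leading model FAS-203 rose from 0.0675 ± 0.071 to 5.89 ± 1.6 TPM and made up 36.4% of the mean FAS level in nutlin. FAS-205 was at 0 in all vehicle samples, so it was not tested, and reached 2.47 ± 0.683 TPM in nutlin. FAS-201, FAS-209 and FAS-216 reached 1.82, 1.70 and 1.53 TPM. Only 3 of the 17 FAS models had the same length in the files as in the annotation used here, against 7 of 8 for TNFRSF10B, so that the type of most FAS models is uncertain and the membrane and soluble forms of FAS were not separated. The share of the leading model was 21.8% ± 29.4 in vehicle and 36.5% ± 7.78 in nutlin for FAS, and 41.3% ± 24.7 and 50.9% ± 2.89 for TNFRSF10B (SD, n = 10 each). For neither gene was the difference called (adjusted p = 0.377 for both, permutation test over 3 genes). For TNFRSF1A the shares were 47.0% ± 29.4 and 40.2% ± 11.1 (adjusted p = 0.509, same test). As shares of estimated counts, the leading model rose by 26.1 percentage points in FAS and by 18.2 in TNFRSF10B (adjusted p = 0.0284 for both, permutation test). Vehicle shares of counts ran from 0% to 100% in FAS and from 29.4% to 100% in TNFRSF10B. The leading model was chosen by mean TPM over all 20 samples, so the choice is not independent of the nutlin level. Uncertainty in dividing reads among models is not in the test.

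**Figure D3:**
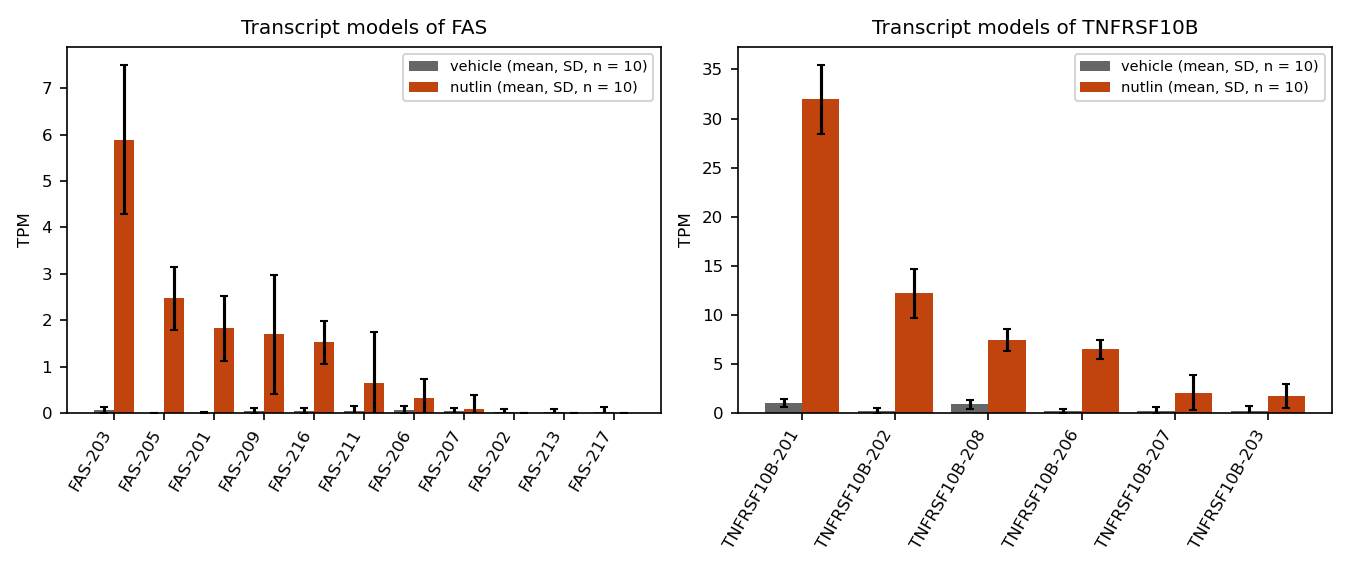
Mean TPM with SD over 10 samples of the transcript models of FAS and TNFRSF10B that reached 5% of their gene's mean TPM in either condition (linear axis from 0; grey vehicle, red nutlin). FAS-203 and TNFRSF10B-201 lead after nutlin, at 5.89 and 32.0 TPM.

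By profile over the 20 samples, the genes nearest to FAS were IL22RA1, a receptor subunit for interleukin-22, TP53INP1 and PIDD1, both known p53 targets. Likeness was the root mean square difference of log2(CPM + 1), centred on the vehicle mean, over these samples and among the 15049 genes that averaged 1 CPM or more. The values were 0.205 for IL22RA1, 0.23 for TP53INP1 and 0.23 for PIDD1. Adding 1 CPM compresses differences at low levels, and the LFC of these genes were 9.21, 4.03 and 4.12, against 5.80 for FAS. Nearest to TNFRSF10B were SESN2, a stress-induced sestrin and known p53 target (0.136), CDH8, a cadherin (0.191), and LIF, a cytokine (0.197). Their LFC were 4.34, 5.80 and 5.44, against 4.55 for TNFRSF10B. The mean of SESN2 went from 12.1 to 246 CPM, and that of TNFRSF10B from 7.04 to 165 CPM. The limit of 1 CPM was set on the mean over all 20 samples. FAS, IL22RA1, CDH8 and LIF averaged below it in vehicle and passed through their nutlin level. The choice of genes is therefore not independent of their response.

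TNFRSF10B, TNFRSF10C, TNFRSF10D and TNFRSF10A lie side by side on chromosome 8, in this order, within 205 kb (hg38, 23020133 to 23225102), TNFRSF10C on the forward strand and the other 3 on the reverse strand. In the window of TNFRSF10B a p53-like match was found in intron 1, 390 bases after the start (23068622 to 23068641), with 2 mismatches. The windows of TNFRSF10A, TNFRSF10C and TNFRSF10D held none. The search covered protein-coding genes only. Among those tested, 50.4% of the 506 with a match in the window were called higher, and 31.9% of the 16845 without one.

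Within 200 kb of the cluster, 14 other genes were tested, of which 3 were called higher and 3 lower. Of all genes tested, 32.3% were called higher and 26.5% lower. The lncRNA ENSG00000246130, which overlaps TNFRSF10B on the opposite strand, rose from 0.0363 to 3.08 CPM (LFC 6.09, SE 0.342, adjusted p = 9.35e-16). Reads from any stretch that both genes cover can be told apart only by strand. The lncRNA ENSG00000245025 rose with an LFC of 1.32 (SE 0.196) and RHOBTB2 with an LFC of 0.37 (SE 0.0489). CHMP7, R3HCC1 and ENTPD4, on the other side of the cluster, fell by 0.21, 0.13 and 0.14 on the log2 scale. Large rises in this region were thus measured for TNFRSF10B, TNFRSF10C, TNFRSF10D and the overlapping lncRNA, whereas TNFRSF10A, at the end of the cluster, stayed at a few counts.

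**Figure D4:**
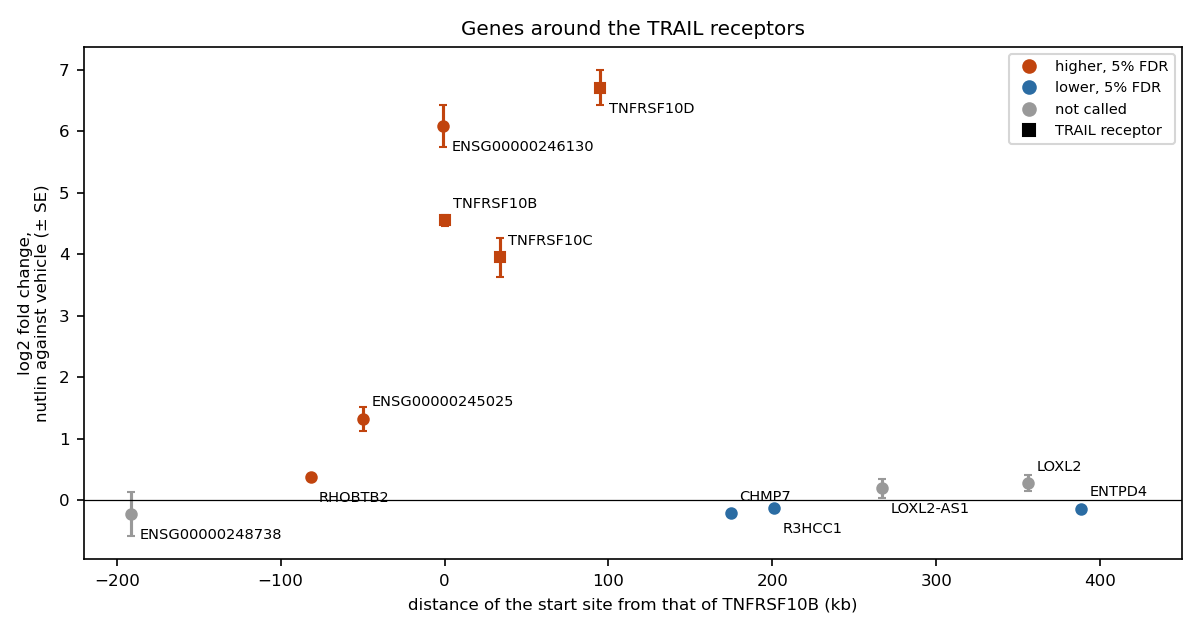
LFC with SE of the tested genes around the TRAIL receptors against the distance of their start from that of TNFRSF10B, in kb, for genes with a mean of at least 3 counts in 1 condition. TNFRSF10B, TNFRSF10C, TNFRSF10D (squares) and the lncRNA ENSG00000246130 lie between 3.95 and 6.71, and all other genes lie at 1.32 or below.

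Beside the 8 genes, a list of 25 genes of the same pathway was examined, of which 23 were tested, 7 were called higher and 7 lower, against 32.3% and 26.5% of all genes. The median LFC of the 23 was 0.02. The shares called in each direction were near those of all genes.

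Among 5 other receptors with a death domain or related to them, 3 were higher, 1 lower and 1 not called. EDA2R, the receptor for ectodysplasin A2 and a known p53 target, rose from a median of 12.2 to 145.8 CPM (LFC 3.65, SE 0.076, adjusted p = 3.50e-26). NGFR, the low-affinity neurotrophin receptor, had an LFC of 1.47 (SE 0.0818) and TNFRSF25 (DR3) an LFC of 1.26 (SE 0.168). In all 3 every nutlin sample was above every vehicle sample in CPM, as in 12.2% of all genes tested. TNFRSF21 (DR6) fell by 0.34 on the log2 scale (SE 0.0352), and EDAR, at an LFC of -0.49 (SE 0.354, adjusted p = 0.241), was not called.

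Of the soluble decoys, TNFRSF11B (osteoprotegerin, which also binds TRAIL) had 4 counts in vehicle and 20 in nutlin in all and was called higher (adjusted p = 0.00664). TNFRSF6B (DcR3, a decoy for FAS ligand) had 0 counts in vehicle and 7 in nutlin, all in 1 sample, and was not tested. Of the other ligands, LTA (lymphotoxin alpha) had 6 counts in vehicle and 83 in nutlin, a scaled ratio of 15.4 (exact 95% interval 6.79 to 43.2, adjusted p of the edgeR test 4.57e-07). TNF had 0 counts in all vehicle samples, which left it untested, and 1 to 9 in the nutlin samples, 46 in all. Against a floor of 3 counts over the vehicle group it was at least 17.1-fold higher after scaling by library totals. TNFSF15 had an LFC of -0.04 (adjusted p = 0.967).

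Of 7 adaptors and initiators, 1 rose, 2 fell and 4 were not called. CFLAR, which encodes the caspase-8 inhibitor c-FLIP, rose (LFC 0.65, SE 0.069). FADD, the adaptor of FAS and of the TRAIL receptors, fell by 0.65 (SE 0.0708) and TRAF2, an adaptor of tumour necrosis factor receptors, by 0.93 (SE 0.0488) on the log2 scale. In these 3 genes the groups did not overlap in CPM. Of all 27697 genes tested, 3377 had every nutlin sample above every vehicle sample, and 4609 had every nutlin sample below. CASP8, the initiator caspase, had 4, 14.5 and 20 counts at the lowest, median and highest in vehicle and 8, 19 and 40 in nutlin (LFC 0.53, SE 0.268, adjusted p = 0.0899). TRADD, RIPK1 and CASP10 had LFC values of 0.41, 0.13 and -0.20 and were not called either. CASP10 was at 4.0 counts per library in vehicle and 3.6 in nutlin on average.

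Of the 4 inhibitors of apoptosis and their antagonist, only BIRC2 (cIAP1) was called, and it fell by 0.75 on the log2 scale (SE 0.0819). XIAP had an LFC of 0.27 (adjusted p = 0.139) and DIABLO, the antagonist, an LFC of 0.02 (adjusted p = 0.675), whereas BIRC3 was at 2.0 counts per library in both groups. Of the genes downstream of the initiators, BID, which links the receptors to mitochondria, fell by 0.44 (SE 0.0896) and CASP6, a further caspase, by 0.89 (SE 0.114) on the log2 scale. CASP6 went from a median of 4.82 CPM in vehicle to 2.62 CPM in nutlin, without overlap. Every nutlin sample was below every vehicle sample in 4609 of the 27697 genes tested.

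**Figure D5:**
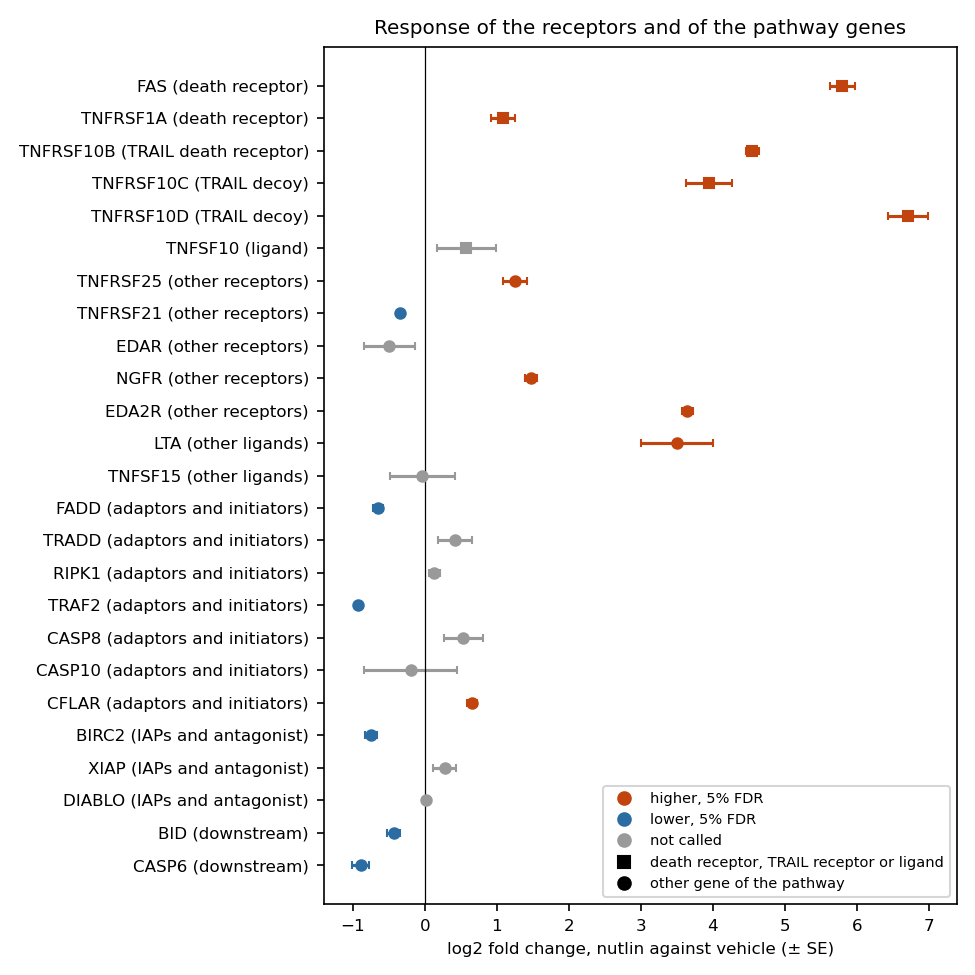
LFC with SE (log2 scale, nutlin against vehicle) of the 6 members of the receptor and ligand list (squares) and the 19 pathway genes reported here (circles) with a mean of at least 3 counts in 1 condition. Red marks genes called higher, blue lower and grey not called at 5% FDR. FAS, TNFRSF10B, TNFRSF10C and TNFRSF10D lie at 3.95 or above, whereas FADD, TRAF2, BIRC2 and CASP6 lie below -0.6.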

How the data were processed

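RNA-seq of 10 vehicle and 10 nutlin samples of NGP cells was analysed from the deposited transcript tables, grouped by sample title. The authors quantified stranded poly(A) libraries with kallisto v0.42.4 on hg38 transcripts, and the strand setting is not given in the sources used here. The deposited estimated counts are read pairs assigned to a transcript, with no normalization. The deposited TPM values are those counts scaled by the authors' kallisto runs for effective length and library size.

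Transcripts were matched by identifier to GENCODE release 44. Of 198968 transcripts, 191106 (96.05%) matched, with 95.7% to 96.8% of counts per sample, and the rest were left out. Counts were summed per gene and rounded. Protein-coding and lncRNA genes counted at least 1 time per condition entered the test, made with edgeR 4.0.16 (TMM, quasi-likelihood F-test, condition only, Benjamini-Hochberg, 5% FDR) in R 4.3.3. The SE is the absolute LFC divided by the square root of F. Permutation tests used scipy 1.17.1 with 100000 resamples or full enumeration. Exact intervals are 95% Clopper-Pearson intervals turned into ratios and cover counting error only. Ratios of summed counts were scaled by library totals without the TMM factors, so they differ from the edgeR folds.

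The genes and lists were chosen with earlier results of these data known. The genes of the lists were named, apart from 2 of the pathway list that are counted in its totals and not reported here, and MDM2 and CDKN1A as a treatment check. Further named genes were the 3 nearest in profile to FAS and TNFRSF10B, and the transcripts with at least 5% of their gene's TPM. The genes around the TRAIL receptors, ACTA2 and STAMBPL1 were named after their values were seen. Alternatives were another normalization, test (DESeq2 1.42.0, limma 3.58.1), filter or library size, an effective length offset, the replicate number as a block, 1% FDR, CPM or other pseudocounts for ratios, and shares of counts. Leaving out the nutlin sample numbered 4 or the vehicle sample numbered 3, and a linear decoy ratio, were added after seeing the data. The test was run on simulated data first.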

Additional observations from a re-analysis of the deposited data

Results flagged for a closer look

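In 4 of the 16 groups of 10 samples examined, 1 sample stood apart from the other 9 by Dixon's criterion. For normally distributed values chance meets it in about 1 in 20 groups. Several groups here held few, discrete counts, so 4 of 16 cannot be set against that rate. FAS in the vehicle sample numbered 3 was at 1.02 CPM (16 counts), against a group median of 0.275 CPM. Of 18 genes with an LFC over 4 and at least 1 CPM in vehicle, that sample had the highest vehicle value in 1. TNFRSF1A in the nutlin sample numbered 4 was at 1.04 CPM (16 counts), the lowest of its group, against a median of 2.33 CPM. In the vehicle sample numbered 10, TNFRSF10A was at 0.131 CPM (2 counts) and TNFRSF10C at 0.329 CPM (5 counts), the highest of the group for both genes. The sample numbered 10 had the highest vehicle value in 5 of the 18 genes, the most of any vehicle sample. Its TNFRSF10B (10.7 CPM) and CDKN1A (52.4 CPM) were the highest of the vehicle group. In expression over all genes it was the farthest from the rest of that group. The cause was not tested.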

How the results depend on the processing

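Of 158 values recomputed under an alternative, 149 kept their direction and their side of the threshold, or for counts stayed within 1.5 times. The LFC ranged from 5.47 to 6.12 for FAS, from 4.54 to 4.62 for TNFRSF10B, from 3.83 to 4.10 for TNFRSF10C, from 6.45 to 7.08 for TNFRSF10D and from 1.08 to 1.22 for TNFRSF1A, each called under every alternative run. Between 5 and 6 of the 8 genes and between 7 and 9 of the pathway genes were called higher. TNFRSF10A, FASLG and TNFSF10 were not tested under the filterByExpr filter. That filter left 5 of the 8 genes, all called higher, and 16 of the pathway genes. The adjusted p of TNFRSF10A was 0.183 with the replicate block and 0.0648 in the same 16 samples with no replicate block. The adjusted p ranged from 0.0776 to 0.338 for FASLG and from 0.143 to 0.406 for TNFSF10.

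The difference in the log2 decoy ratio was -0.60 with a pseudocount of 0.1 TPM (reversed), 0.997 with CPM and 0.59 under the replicate block over 6 pairs (exact permutation p = 0.406). The response of FAS minus TNFRSF10B was -0.49 with 1 TPM added. As shares of counts, the leading transcript rose by 26.1 percentage points in FAS, 18.2 in TNFRSF10B and 4.21 (reversed) in TNFRSF1A. With members down to 0.1 TPM, 15 pairs were tested in place of 3, and all differed in response. TNFRSF10C and TNFRSF10D, at 0.0758 and 0.0131 TPM in vehicle, passed this limit only through their nutlin level. Their vehicle means were below the 0.1 TPM added, so the size of their responses depends on that constant. The cause of the other changes was not tested.

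Labels share 8 replicate numbers between the groups. Deviations of same-numbered samples had correlations of -0.105 to 0.11, and 0 of 8 pairs correlated best with their own number, so the numbers were not taken to pair the samples. Set against the same 16 samples without it, the block changed no call of the 8 genes. Over all genes, 14273 were called with the block and 14994 without it in the same samples. Members with fewer than 3 counts per library, FASLG and TNFRSF10A, limit what can be said of them at this depth.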
